A study of Mus musculus with 6 samples.

Results

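Npr3, the clearance receptor for natriuretic peptides, and Amacr, a racemase of lipid oxidation, lie near each other on mouse chromosome 15, and the genes described here are those 2 and 7 of their neighbours. In chromosome order the 9 genes are Dnajc21, Brix1, Ttc23l, Rai14, C1qtnf3, Amacr, Tars, Npr3 and Sub1. They were chosen as genes near Npr3 because several of them had a higher signal in Rb deleted than in Rb intact prostate cells, so the difference between those groups is given for them as a description. Where the text says which of them passed the threshold of the fit over all genes, that sorts the genes by size and spread and is no evidence for the choice. All 9 of the 9 had a probe among the 20832 named genes of the array, and all 9 were among the 13731 genes bright enough to be tested, each well above background on all 6 arrays by the probe used. Probes were matched by RefSeq accession, and the 9 genes had 13 probes in all.

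The cells were primary prostate cells of mice that lacked p53 (p53-/-) and carried loxP-flanked alleles of Rb, the retinoblastoma protein that holds back entry into S phase. In the Rb intact group (p53-/- Rbf/f) the cells had an overnight infection with a lacZ adenovirus, and in the Rb deleted group (p53-/- Rb∆f/∆f) with an adenovirus of Cre recombinase, which cuts out the flanked part of Rb. RNA was taken 48 h after infection from cells grown without serum, in Prostacult medium with bFGF and bEGF. Each group had 3 samples, from what the series design calls independent experiments, and each sample was labelled with Cy3 and hybridised to its own Agilent array. The comparison asks which genes differ after deletion of Rb in cells already without p53. Every Rb intact sample had the lacZ virus and every Rb deleted sample the Cre virus, so an effect of either virus and an effect of Rb loss cannot be told apart. The age of the animals is not given in the labels.

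Natriuretic peptides signal through receptor guanylate cyclases that make cyclic GMP, whereas Npr3 has no cyclase domain and mainly takes the peptides up and clears them. Amacr converts the R form of branched-chain acyl-CoA esters to the S form, which peroxisomal beta-oxidation requires, and its protein is widely used as a tissue marker of prostate cancer. The other genes of the stretch serve unrelated functions. C1qtnf3 encodes a secreted protein of the C1q and TNF related family. Tars charges transfer RNA with threonine, Brix1 and Dnajc21 act in assembly of the large ribosomal subunit, Rai14 is an ankyrin repeat protein bound to actin filaments, and Sub1 is a coactivator of transcription that binds single-stranded DNA.

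The promoters of 3 of these genes are printed because they show how unlike each other the start regions of neighbouring genes were. Each is the 250 bases before the start of the gene on the gene's own strand, from RefSeq on build GRCm38.p6. The Npr3 sequence is chr15:11907372-11907621, minus strand, the C1qtnf3 sequence chr15:10952082-10952331, plus strand, and the Tars sequence chr15:11399659-11399908, minus strand. Capitals mark the only match to a searched motif.
Npr3: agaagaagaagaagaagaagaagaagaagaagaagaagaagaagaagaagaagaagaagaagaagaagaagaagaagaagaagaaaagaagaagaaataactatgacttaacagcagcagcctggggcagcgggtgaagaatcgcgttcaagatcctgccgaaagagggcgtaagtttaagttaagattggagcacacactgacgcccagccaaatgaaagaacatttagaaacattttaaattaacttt
C1qtnf3: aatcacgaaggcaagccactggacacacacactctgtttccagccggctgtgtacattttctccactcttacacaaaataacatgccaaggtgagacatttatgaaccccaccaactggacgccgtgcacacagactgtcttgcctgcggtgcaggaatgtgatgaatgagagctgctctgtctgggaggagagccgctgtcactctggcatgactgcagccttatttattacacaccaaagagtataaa
Tars: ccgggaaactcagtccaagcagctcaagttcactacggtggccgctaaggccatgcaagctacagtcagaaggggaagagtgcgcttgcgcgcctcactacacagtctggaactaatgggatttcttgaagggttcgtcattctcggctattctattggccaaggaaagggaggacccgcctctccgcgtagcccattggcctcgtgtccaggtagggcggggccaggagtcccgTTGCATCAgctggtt

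The promoter table held 8 of the 9 genes, in 10 windows that reach from 250 bases before the start to 50 bases past it. Amacr had no entry. The Npr3 window had 39% G and C, and the median of all 32851 windows in the table was 52.7%. It holds an unbroken AAG repeat of 85 bases, and 5 of all windows (0.0152%) have a run at least as long. The windows of C1qtnf3 and Tars had 50.7% and 59% G and C, and that of Dnajc21 had 78.7%. The other windows lay between 48%, at the second start of Rai14, and 67%, at its first. Brix1 faces Rad1, a subunit of a DNA damage checkpoint clamp, from opposite strands, and their windows share up to 200 bases.

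Motifs of 4 kinds were searched on both strands of each window, as letters only. The E2F motif was taken as TTTGGCGC, TTTCCCGC, TTTCGCGC or TTTGCCGC, and 2.26% of all windows hold it. The cell cycle homology region, TTTGAA, is in 17.9% of all windows. The cyclic AMP response element, TGACGTCA, is in 1.79%. The composite site of Atf4, the transcription factor of the amino acid stress response, was taken as TGATGNAA and is in 3.97%. Among the windows of the 8 genes the only match was TTGCATCA in Tars, the Atf4 composite letters read on the reverse strand, 15 bases before the start, and it overlapped no other match. The other 7 genes with a window held none of these letters there.

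On the 6 arrays 59.0% to 63.3% of probes were well above background, and 0 spots were saturated. The targeted gene followed the labels: Rb1 read -1.14 ± 0.02 with Rb intact and -3.10 ± 0.03 after deletion (SD, n = 3 each), which leaves 25.8% of the intact signal (limma adjusted p = 8.19e-05). Levels here and below are log2 intensities measured from the 75th percentile of their array, a difference is the Rb deleted mean minus the Rb intact mean of those levels, and the threshold is a limma adjusted p under 0.05 over all tested genes. Rb intact 1 stood apart from the other intact arrays, with Pearson's r over probes of 0.993 to each of them against 0.998 between those. Rb deleted 1 shared the first slide with the 3 Rb intact arrays, while Rb deleted 2 and 3 were on another. Of the prostate markers, Cdh3, a basal gene, was not well above background on any array, whereas all 7 of 7 fibroblast and mesenchyme markers were measured. The labels do not say whether the samples came from separate animals, so p-values measure the spread among these samples. In such cultures fewer cells of a type and less RNA per cell cannot be told apart, and with 3 arrays a group the precision of each value is limited.

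Of the 9 genes, 5 were higher in Rb deleted past the threshold (Npr3, C1qtnf3, Amacr, Dnajc21 and Rai14) and 0 were lower. Of all tested genes 9.66% were higher by the same rule and 20.4% were past it in either direction. The same 5 genes had every Rb deleted array above every Rb intact array, which 23.7% of all tested genes with a value on every array had. The groups did not overlap in either direction in 45.2% of those genes. The median difference of the 9 genes was 0.25 and that of all tested genes 0.01, with a median size of 0.16. Since these genes were picked on this contrast, nothing is read from those counts. Brix1, Ttc23l, Tars and Sub1 had overlapping groups, so a higher signal was not shared by every gene of the stretch.

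**Figure D1:**
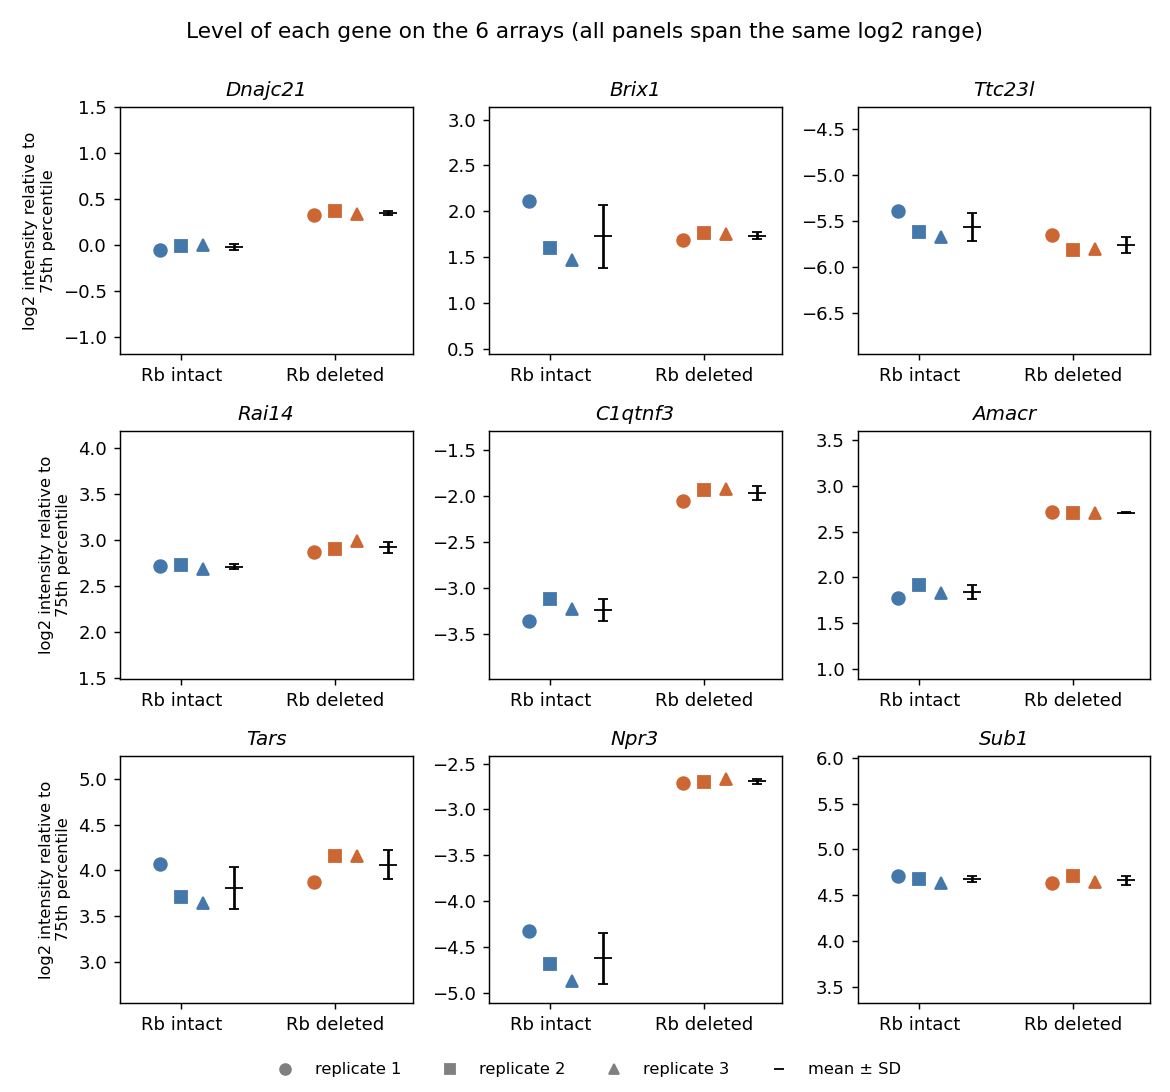
Level of the 9 genes on each array, as log2 intensity measured from that array's own percentile (vertical axes, each spanning the same number of log2 units but with its own zero point), with Rb intact arrays in blue, Rb deleted arrays in orange, symbols for replicate numbers and bars for mean ± SD (n = 3). Npr3, C1qtnf3 and Amacr show the widest gaps between groups, and in Brix1 and Tars the Rb intact 1 array lies above the other intact arrays.

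Npr3 was the gene of the stretch with the largest difference. Its level was -4.32, -4.68 and -4.87 on Rb intact 1 to 3 and -2.72, -2.70 and -2.66 on Rb deleted 1 to 3. The intact arrays spread over more than the deleted ones, and the groups were far apart. The means were -4.62 ± 0.28 and -2.69 ± 0.03 (SD, n = 3 each), a difference of 1.93 ± 0.14 (SE), or 3.81-fold. Rb intact 1 was the highest of the intact arrays, and without it the difference was 2.08, or 4.23-fold. Within the first slide it was 1.91. With a normexp background correction in place of the processed signal the difference was 1.37.

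C1qtnf3 came next. It read -3.37, -3.12 and -3.23 in Rb intact and -2.06, -1.93 and -1.92 in Rb deleted, with no overlap. The means were -3.24 ± 0.12 and -1.97 ± 0.08 (SD, n = 3 each), and the difference was 1.27 ± 0.08 (SE), or 2.41-fold. This probe, A_55_P2062573, was designed on the transcript NM_001204134. The probe on another transcript of the gene, A_51_P425071 on NM_030888, read -5.47, -6.33 and -5.19 in Rb intact, where 2 of 3 arrays were well above background, and -4.96, -4.66 and -4.48 in Rb deleted. Both probes had the deleted arrays above the intact ones, and the second gave a difference of 0.96.

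Amacr was the third gene with a wide gap between the groups. Its level was 1.77, 1.92 and 1.83 in Rb intact and 2.71, 2.71 and 2.70 in Rb deleted. The 3 deleted arrays were nearly equal and all lay above the intact ones. The means were 1.84 ± 0.08 and 2.71 ± 0.01 (SD, n = 3 each), a difference of 0.87 ± 0.06 (SE), or 1.82-fold. The difference within the first slide was also 0.87, and leaving out each array in turn gave 0.83 to 0.91.

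Dnajc21, a J-domain co-chaperone of cytosolic ribosome maturation, lies at the end of the stretch away from Npr3. It read -0.06, -0.01 and -0.00 in Rb intact and 0.33, 0.37 and 0.34 in Rb deleted. The groups did not overlap, and the difference was 0.37 ± 0.05 (SE), or 1.29-fold, with means of -0.02 ± 0.03 and 0.35 ± 0.02 (SD, n = 3 each). Its other probe gave 0.34, from -0.19, -0.27 and -0.26 in Rb intact to 0.10 on each Rb deleted array. The 2 probes thus had the same order of groups. Rai14 read 2.72, 2.73 and 2.68 in Rb intact and 2.87, 2.90 and 2.99 in Rb deleted. The gap between its groups was narrow, with a difference of 0.21 ± 0.06 (SE), or 1.16-fold. Of the 6 fits that leave out an array, only that without Rb intact 1 kept Rai14 past the threshold, and it lay past it neither with slide nor with replicate number as a block.

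Rai14 was the gene least far inside the threshold. Outside it lay Tars, Ttc23l, Brix1 and Sub1, and in each the arrays of the groups overlapped. Tars read 4.07, 3.71 and 3.65 in Rb intact and 3.88, 4.15 and 4.16 in Rb deleted. Rb intact 1 was high among the intact arrays, and Rb deleted 1, the only deleted array of the first slide, was low among the deleted ones. The means were 3.81 ± 0.23 and 4.06 ± 0.16 (SD, n = 3 each), and the difference was 0.25 ± 0.14 (SE). It was 0.07 within the first slide and 0.38 without Rb intact 1, where it passed the threshold. Rb deleted 2 and 3 lay on average 0.28 above Rb deleted 1.

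Brix1 turned on the same intact array. It read 2.11, 1.60 and 1.47 in Rb intact and 1.69, 1.76 and 1.75 in Rb deleted. The high value on Rb intact 1 gave the intact mean of 1.73 ± 0.34 against 1.74 ± 0.04 (SD, n = 3 each) and a difference of 0.01 ± 0.16 (SE). Without Rb intact 1 the difference was 0.20 and past the threshold, while within the first slide it was -0.04. The other Brix1 probe gave a difference of 0.00, with Rb intact 1 at -0.74, Rb intact 2 at -0.60 and Rb intact 3 at -0.73. That probe did not show the high value on Rb intact 1.

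Ttc23l, a tetratricopeptide repeat protein, was the only gene of the stretch with a lower mean in Rb deleted by more than 0.1. Its level was -5.39, -5.62 and -5.68 in Rb intact and -5.66, -5.82 and -5.80 in Rb deleted, with a difference of -0.20 ± 0.09 (SE). Sub1 read 4.71, 4.68 and 4.64 in Rb intact and 4.63, 4.71 and 4.64 in Rb deleted. The Sub1 groups lay on top of each other, with a difference of -0.01 ± 0.05 (SE), and its other probe gave 0.19 with overlapping groups.

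All 13 probes of the 9 genes passed the brightness filter. The count of the 9 genes past the threshold was 4, without Rai14, under several alternatives. These were median scaling, quantile normalization, a 75th percentile over bright probes, normexp, no filter on dim probes and an adjusted p under 0.01. In that order 1090, 1352, 1259, 1006, 611 and 429 of all tested genes were higher, in place of 1327. With no filter, dim genes were tested too. The count of the 9 genes moved further with the slide and with Rb intact 1. With slide as a block it was 3 (C1qtnf3, Amacr and Npr3), where 1.46% of all tested genes were higher. Within the first slide, which sets 3 arrays against Rb deleted 1, limma called 0 of the 9, where 0.197% of all tested genes were higher, and 4 of the 9 had an unadjusted p under 0.05, as had 1948 of all genes. Without Rb intact 1 it was 7, with Brix1 and Tars added, where 19.1% of all tested genes were higher. With the replicate number as a block it was 4, without Rai14, where 5.09% of all tested genes were higher. The differences of Npr3, C1qtnf3, Amacr and Dnajc21 themselves changed little between these sets of arrays.

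**Figure D2:**
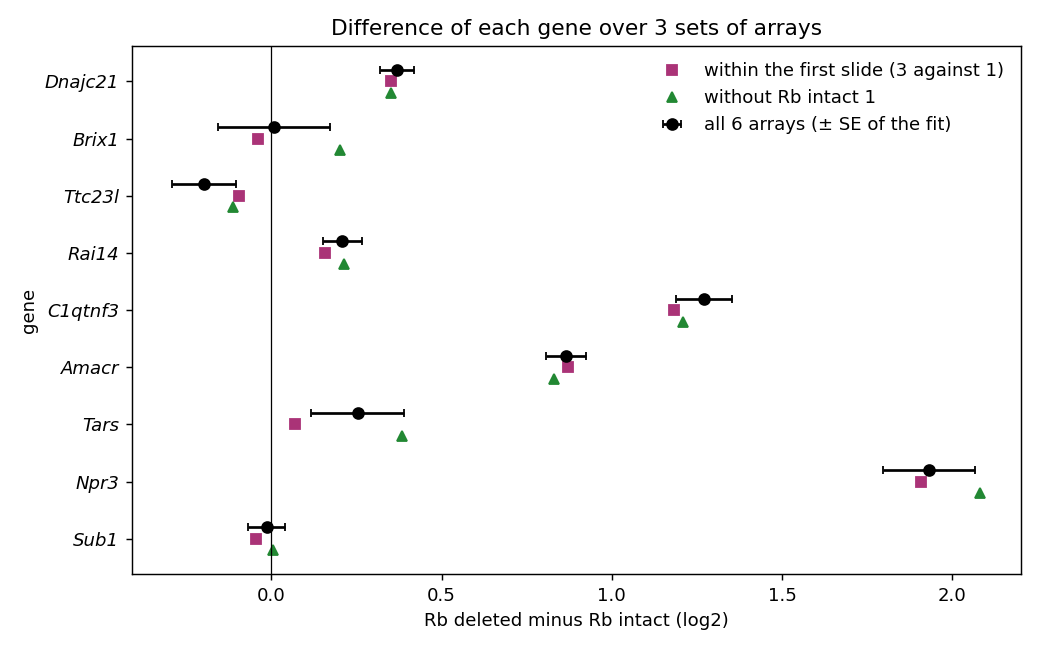
Log2 difference of each of the 9 genes between Rb deleted and Rb intact (horizontal axis), over all 6 arrays (black, ± SE of the fit), within the first slide (purple squares) and without Rb intact 1 (green triangles). The 3 marks lie close together for Amacr and Dnajc21, whereas Tars runs from 0.07 to 0.38 and Brix1 from -0.04 to 0.20.

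The genes were also compared by their levels over the 6 arrays, a measure that includes the size of the group difference. After each gene was centred on its own mean, the root mean square distance from Npr3 over the 6 arrays was 0.395 for C1qtnf3 and 0.565 for Amacr, and 0.801 to 1.07 for the other genes of the stretch. Npr3's own root mean square around its mean was 0.979. Among all other tested genes the nearest to Npr3 were Ccl4 at 0.109, Gdf15 at 0.150, Ccl5 at 0.206, Ifi44l at 0.275 and Kcnk9 at 0.279. Ccl4 and Ccl5 are chemokines, Gdf15 is a stress-induced cytokine, Ifi44l is an interferon-induced gene, and Kcnk9 is a potassium channel gene that also lies on chromosome 15. C1qtnf3 was thus the nearest gene of the stretch to Npr3, but not among its nearest genes on the array. The genes nearest to Amacr, whose own root mean square was 0.435, were the histone gene H3c1 at 0.0162, Ccbe1 at 0.0341, Cox6a2 at 0.0486, Cep97 at 0.0576 and Mkx at 0.0629. Every distance is over the same 6 arrays and holds the difference between the groups, on which the stretch was chosen. The distances are therefore no finding separate from that difference.

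Between Dnajc21 and Sub1 the gene table lists 21 other genes, most without a probe. Of the 5 with a probe only Rad1 was bright enough to be tested. It read -0.48, -0.31 and -0.32 in Rb intact and -0.04, -0.10 and -0.11 in Rb deleted. Its groups did not overlap, and the difference was 0.28 ± 0.07 (SE), or 1.22-fold, past the threshold, and 0.33 within the first slide. Rad1 overlaps Ttc23l in the gene table and shares its start region with Brix1, and neither Ttc23l nor Brix1 had a higher signal past the threshold. Slc45a2, a melanosome transporter gene between Amacr and Npr3, and the noncoding Gm10389 were not well above background on any array. Rxfp3, a relaxin family peptide receptor gene, and Adamts12, a secreted metalloprotease gene, were so on 2 and 1 of the Rb deleted arrays and on 0 of the Rb intact arrays.

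None of the 3 nearest tested genes on either side of the stretch was higher past the threshold. Prlr, the prolactin receptor gene and the nearest tested gene before Dnajc21, went the other way, at -3.44, -3.41 and -3.23 in Rb intact and -5.58, -5.99 and -5.26 in Rb deleted. That is a difference of -2.25 ± 0.18 (SE), with the intact level 4.75-fold the deleted level and no overlap. The Prlr signal in Rb deleted was weak, near that of Ttc23l, which limits the fold. The next genes on that side were Lmbrd2 at -0.31 ± 0.11 and Nadk2, a mitochondrial NAD kinase gene, at 0.18 ± 0.11. On the other side Zfr, a zinc finger RNA-binding protein gene, had a difference of -0.10 ± 0.13, Mtmr12 of 0.04 ± 0.05 and Golph3, a Golgi protein gene, of 0.24 ± 0.11 (SE). None of these 5 was past the threshold over all 6 arrays. Without Rb intact 1, Nadk2 was higher past it at 0.30 and Lmbrd2 lower at -0.42. In that fit 5112 of all tested genes were past the threshold in place of 2806.

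Of the 20 tested genes before Dnajc21, 2 were past the threshold as higher and 3 as lower, with a median difference of 0.02. The higher ones, named after their values were seen, were the glutamate transporter gene Slc1a3 at 0.97 ± 0.08 and the ketone body enzyme gene Oxct1 at 0.44 ± 0.12 (SE), and Lifr and Ptger4 joined Prlr as lower. Of the 20 tested genes after Sub1, 0 were higher and 2 were lower, Trio at -0.38 ± 0.05 and Ankrd33b at -0.82 ± 0.08 (SE), also named after their values were seen, and the median was -0.04. Together with Rad1 these 41 genes had 3 higher and 5 lower, where 9.66% of all tested genes were higher and 10.8% lower. On the whole of chromosome 15, 57 of 556 tested genes (10.3%) were higher and 60 (10.8%) lower, with a median difference of 0.03. Without Rb intact 1 the count among the 41 genes was 14 in place of 8. All tested genes past the threshold then numbered 5112 in place of 2806. Without any other array the count among the 41 genes was 5, with 1254 to 1782 over all tested genes.

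**Figure D3:**
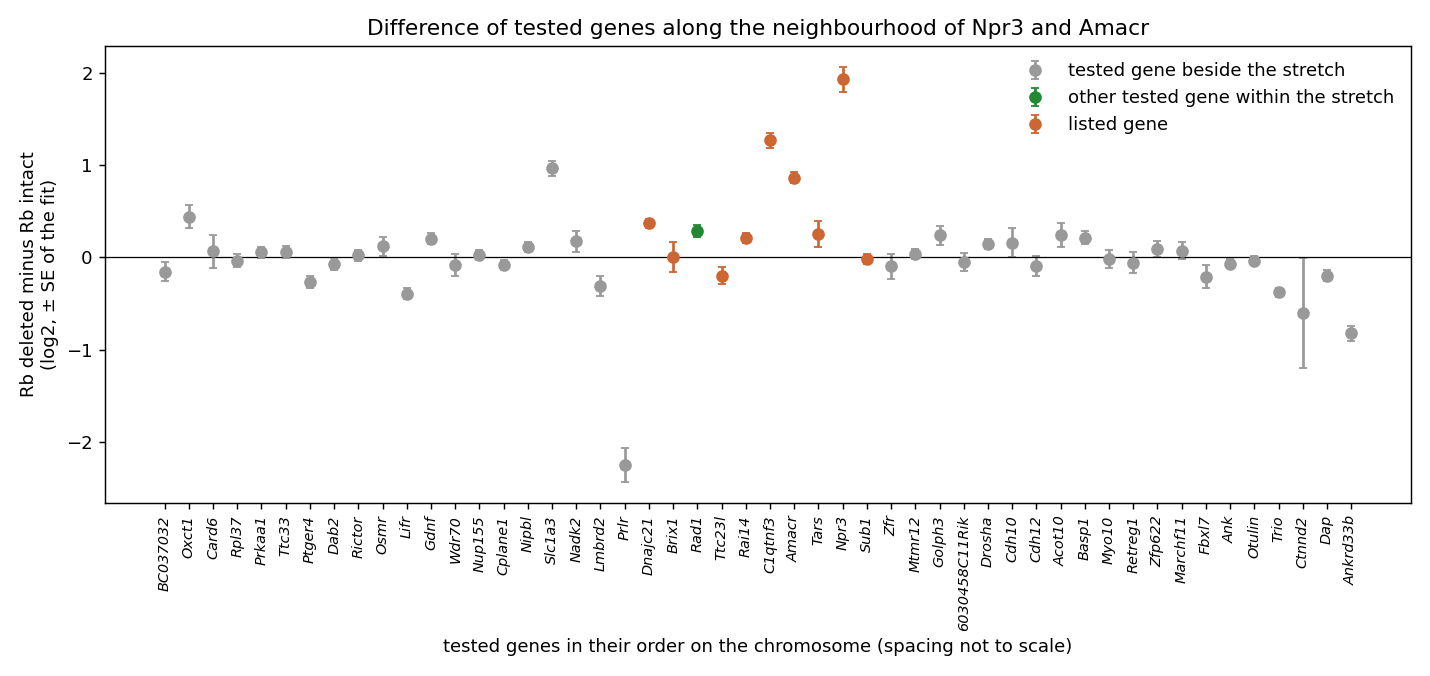
Log2 difference of each tested gene between Rb deleted and Rb intact (vertical axis, ± SE of the fit), in gene order on chromosome 15 with equal spacing, for the 9 genes (orange), Rad1 (green) and 20 tested genes on each side (grey). Npr3 at 1.93, C1qtnf3 at 1.27 and Amacr at 0.87 are the highest of the 9 genes. Slc1a3 at 0.97 lies above Amacr on the side before the stretch. Prlr at -2.25 is the nearest tested gene before the stretch, with untested genes in between. Tars at 0.25 and Sub1 at -0.01 lie lower than Npr3 between them.

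Of 25 other genes of the natriuretic peptide pathway, in which Npr3 works, 18 were tested. In the fit reported here 0 rose and 3 fell, where 9.66% of all tested genes rose and 10.8% fell. Nppb, which encodes the B-type peptide that Npr3 clears, fell by 0.56 ± 0.06 (SE), from -1.67 ± 0.05 to -2.23 ± 0.06 (SD, n = 3 each; limma adjusted p = 0.00184). Pde5a, a phosphodiesterase that breaks down cyclic GMP, fell by 0.38 ± 0.08 (limma adjusted p = 0.0192). Gnai1, an inhibitory G protein subunit, fell by 0.30 ± 0.07 (limma adjusted p = 0.0382). Pde1a, another phosphodiesterase, was just outside the threshold at 0.40 ± 0.11 (limma adjusted p = 0.051). It was higher past the threshold in 9 of 19 alternatives, among them median scaling, quantile normalization, the replicate block and the fit without Rb deleted 1. The median of the list was 0.04, and Npr2, a cyclase receptor, and Nppc, its ligand, had differences of -0.11 ± 0.13 and -0.01 ± 0.09. Nppb fell in each fit that left out an array. The count was 6 without Rb intact 1, with Gucy1b1 and Prkg2 higher, and 1 without Rb intact 2, without Rb intact 3 or without Rb deleted 2. Over all tested genes the fit without Rb intact 1 gave 5112 and the other fits named 1254 to 1765, in place of 2806.

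The genes of branched-chain lipid oxidation around Amacr were mostly near 0. Of 25 others 21 were tested, 1 rose and 1 fell, where 9.66% of all tested genes rose and 10.8% fell, and the median was -0.08. Phyh, the peroxisomal hydroxylase that opens phytanic acid degradation, rose by 0.51 ± 0.08 (SE), from 0.90 ± 0.14 to 1.41 ± 0.03 (SD, n = 3 each; limma adjusted p = 0.00824). Scp2, a peroxisomal thiolase, and Hacl1, a lyase of phytanic acid breakdown, had differences of -0.16 ± 0.07 and -0.13 ± 0.05 (limma adjusted p = 0.144 for each). Without Rb intact 1 the list had 5 genes past the threshold in place of 2, and without Rb deleted 3 it had 1. Over all tested genes these fits gave 5112 and 1266 in place of 2806.

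Around Tars, 8 of the 23 other genes of cytosolic aminoacyl-tRNA synthesis rose and 0 fell, where 9.66% of all tested genes rose. All 23 were tested, 20 had a difference above 0, and the median was 0.22. Tars itself had 0.25 over all 6 arrays, with overlapping groups and not past the threshold. Vars, the valine enzyme, rose by 0.40 ± 0.05 (SE; limma adjusted p = 0.00426) and Mars1, the methionine enzyme, by 0.37 ± 0.05 (limma adjusted p = 0.00439). Sars and Aars, the serine and alanine enzymes, rose by 0.28 ± 0.05 and 0.33 ± 0.06 (limma adjusted p = 0.014 and 0.0141). Cars, Gars, Farsb and Lars were the other genes that rose, and the differences of the list ran from -0.19 for Hars to 0.53 for Iars, neither of them past the threshold. Within the first slide the median of the list was also 0.22, whereas Tars itself had 0.07. With slide as a block limma called 0 of the list, where 1.46% of all tested genes were higher. In that fit 6 of the list had an unadjusted p under 0.05, where 2744 of all 13731 tested genes had one. The count was 15 without Rb intact 1, 3 without Rb intact 2, 5 without Rb deleted 1, and 2 without Rb deleted 2 or without Rb deleted 3. Of all tested genes 2625 were higher without Rb intact 1 and 456 to 809 without another array.

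Brix1 and Dnajc21 belong to the genes of large ribosomal subunit assembly, of which 38 others were tested. By limma 0 rose and 0 fell, where 9.66% of all tested genes rose and 10.8% fell. In the list 4 had an unadjusted p under 0.05, where 4904 of all 13731 tested genes had one. With a mean-variance trend and robust fit 2 of the list were past the threshold, where 2978 of all tested genes were. The median was 0.00. The genes with the smallest p were Rpf1 at 0.52 ± 0.15, Pes1 at -0.34 ± 0.10, Lsg1 at 0.15 ± 0.05 and Ebna1bp2 at 0.14 ± 0.05 (SE; limma adjusted p = 0.0546, 0.0596, 0.0882 and 0.105). Without Rb intact 1 the count was 6, where 5112 of all tested genes were past the threshold. Without Rb intact 2 the count was 1, where 1765 of all tested genes were.

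Of 20 other genes of the C1q and TNF related family, the relatives of C1qtnf3, 10 were tested. Of these 0 rose and 3 fell, where 9.66% of all tested genes rose and 10.8% fell, and the median was -0.08. C1ql3 fell by 0.99 ± 0.07 (SE), from -0.50 ± 0.11 to -1.49 ± 0.02 (SD, n = 3 each; limma adjusted p = 0.000476). C1qtnf2 fell by 0.92 ± 0.06 (limma adjusted p = 0.000449) and C1qtnf7 by 0.75 ± 0.05 (limma adjusted p = 0.000476), and all 3 fell in each fit that left out an array. C1qtnf1 had a difference of -0.42 ± 0.12 (limma adjusted p = 0.0595). Without Rb intact 1 the count was 5, all lower, and without Rb deleted 1 it was 4, with C1qtnf4 higher. Over all tested genes these fits gave 5112 and 1782 in place of 2806.

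**Figure D4:**
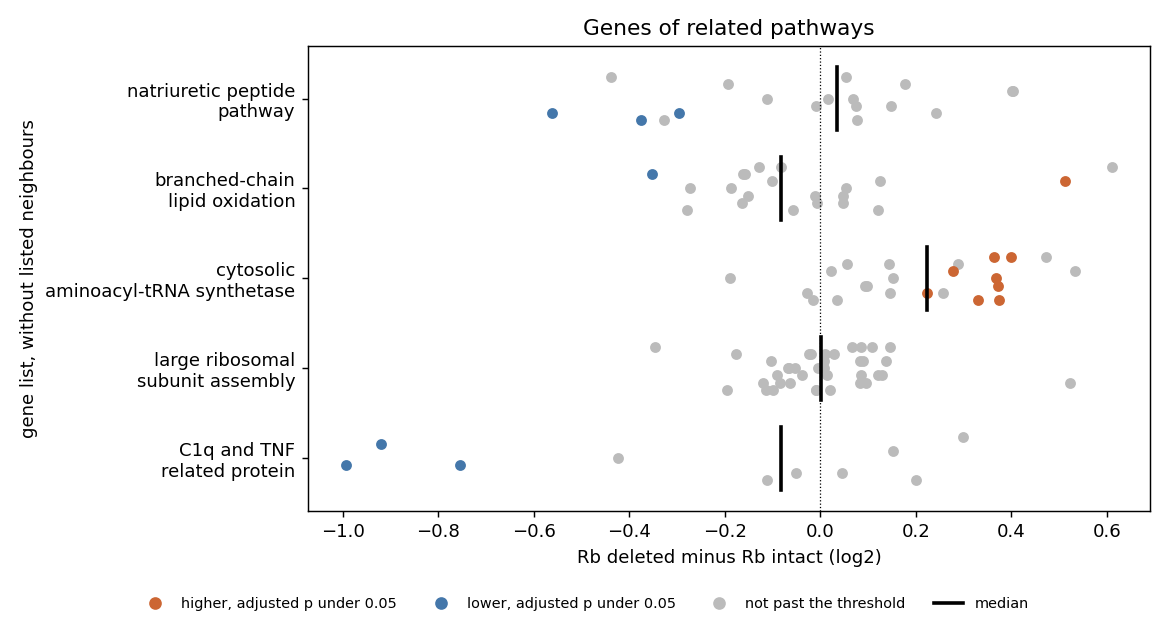
Log2 differences of the tested genes of 5 lists between Rb deleted and Rb intact (horizontal axis), each without the 9 genes of the stretch, with genes that rose in orange, genes that fell in blue, others in grey and the list's median as a black bar. The aminoacyl-tRNA synthetase genes have a median of 0.22 with 8 higher, whereas the ribosome assembly genes centre on 0.00 with none past the threshold.

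Some markers of cell types also differed between these cultures. Of all tested genes 10.8% were lower past the threshold and 9.66% higher. The summed level of each set of markers was taken as linear intensity in multiples of the array's 75th percentile. Of 6 basal epithelial markers 4 were tested and 3 fell (Trp63, Itga6 and Itgb4), whereas Krt14 had a difference of 0.07. The basal sum was 28.8 to 34.5 in Rb intact and 20.9 to 21.5 in Rb deleted. Both tested smooth muscle markers of 4, Acta2 and Cnn1, fell, with sums of 7.02 to 10.2 and 3.38 to 3.58, and Myh11 was not well above background on any array. Of the 7 fibroblast and mesenchyme markers 0 were past the threshold, with sums of 340 to 354 and 319 to 347. Of 6 luminal markers 3 were tested and 0 were past it, with sums of 10.9 to 12.2 and 9.37 to 10.8. Of 4 endothelial markers, all tested, Vwf fell, with sums of 3.81 to 3.95 and 3.30 to 4.0. Of 5 leukocyte markers 2 were tested and 0 were past it, with sums of 2.08 to 5.86 and 3.43 to 4.03, and Ptprc was not well above background on any array. Of 4 neuroendocrine markers 3 were tested and 0 were past it, with sums of 4.83 to 6.13 and 5.66 to 6.35, and Chga was not well above background on any array. The part of these shifts in the values of Npr3, Amacr and their neighbours was not tested.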

How the data were processed

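Total RNA of 6 cultures was measured on 1-colour Agilent arrays. Per the file headers, the deposited processed intensity is spot brightness after background subtraction, made by the authors with Feature Extraction 11.0.1.1 (version 10.7.3.1 per the submitters' processing notes), on a design of build mm9. The authors also deposited a table of log2 values, used only as an alternative: within 0.01 it equalled log2 processed intensity minus a constant per array in 100% of its 22164 probes.

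Outlying spots were left out of the 43020 non-control spots per array, spots were averaged to 39429 probes, and log2 intensity was shifted by the array's 75th percentile over all non-control spots. Probes well above background on all 3 arrays of a group were kept (23051). RefSeq accessions matched 27427 probes to 20832 genes of a GRCm38.p6 gene table, used for names and gene order, and 12002 probes stayed unnamed. The passing probe of highest mean over the arrays stood for its gene. In all, 13731 genes were tested with limma 3.58.1 in R 4.3.3 (lmFit, eBayes, no block, Benjamini-Hochberg), a fit tested on simulated data. Of these, 18 had a value missing on 1 array and were fitted on the rest. Fold changes are 2 to the power of the log2 difference.

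The genes of the stretch and the gene lists were chosen with earlier results of these data known. Named genes are all 9 genes, Rb1, the genes between them, the 3 nearest tested genes on each side, the 4 smallest p-values of each list without the 9, and the 5 profiles nearest to Npr3 and to Amacr. Other genes are named as list members, extremes or after their values were seen, and some items that the rule or the labels name are not reported here. Alternatives covered scaling, background, brightness filter, probe choice, variance model, threshold, slide, replicate number, stretch width, the deposited table and leaving out each array.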

Additional observations from a re-analysis of the deposited data

How the results depend on the processing

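No difference of the 9 genes reversed past the threshold. Npr3, C1qtnf3, Amacr, Dnajc21, Rai14, Tars and Ttc23l kept the sign of their difference in 19 of 19 alternatives, Sub1 in 14 and Brix1 in 10. The count of the 9 genes past the threshold was 3 with slide as a block, 0 within the first slide, and 4 to 7 when an array was left out. Removing Rb intact 1 gave 7, where 2625 of all tested genes were higher. Removing any other array gave 4, where 456 to 809 of all tested genes were higher.

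Replicate numbers are shared by the groups, but same-numbered arrays did not deviate together (correlations -0.03, -0.05 and 0.02), so they were not taken as pairs. With the replicate block 4 of the 9 genes were past the threshold, where 5.09% of all tested genes were higher. The replicate block gave 1661 genes in all in place of 2806, 5 between and beside the stretch in place of 8, and 3 in the aminoacyl-tRNA synthetase list in place of 8.

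All genes past the threshold numbered 1491 with no filter on dim probes, 672 with slide as a block, 151 within the first slide, 1127 at an adjusted p under 0.01, and 1254 to 5112 when an array was left out. Genes between and beside the stretch numbered 5, 3, 1 and 5 under those settings, 5 to 14 when an array was left out, and 4 over 10 genes on each side. The natriuretic peptide list numbered 1, 1, 0 and 1, and 1 to 6 when an array was left out. The aminoacyl-tRNA synthetase list numbered 4, 0, 0 and 2, and 2 to 15 when an array was left out. The branched-chain lipid list numbered 1 with slide as a block, 0 within the first slide and 1 to 5 when an array was left out. The C1q and TNF list numbered 0 within the first slide and 3 to 5 when an array was left out. The ribosome assembly list, with 0 in the limma fit reported, numbered 1 with quantile normalization or the deposited log2 table, 2 with normexp, the mean of probes or a trend and robust fit, and 0 to 6 when an array was left out. Within the first slide a lone Rb deleted array is assumed to vary like the others, and apart from fewer arrays there the cause of these moves was not tested. Scaling alternatives moved the median of all genes by less than 0.1. Weak signal limits Ttc23l, Npr3, the second probes of C1qtnf3 and Sub1, and, beside the stretch, Prlr and Slc1a3.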
